A study of Mus musculus with 7 samples.

Results

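Described here are 9 receptor and factor genes better known from natural killer (NK) cells and innate-like T cells than from conventional CD4 T cells. They are Klrk1, Klrc1, Klre1, Klrd1, Klrb1c, Klrg1, Cd160 and Ncr1, which encode NK-type surface receptors, and Zbtb16, which encodes the transcription factor PLZF. They were taken by symbol from a deposited table of 15588 genes, and all 9 were in it and passed the filter on low counts. They were chosen with their levels on both days in these libraries already known, so their differences between days are given as a description, and nothing is drawn from the fit's calls on them. The table comes from bulk RNA sequencing of tumour-infiltrating CD4 T cells, sorted in a mouse orthotopic transplantation model of liver cell cancer (hepatocellular carcinoma). The day 7 group (5 libraries, 7 days after the model was set up) was set against the day 0 group (2 libraries). The labels name no strain, age, tumour line or genotype, and do not say which tissue stood for tumour on day 0. Libraries are called by the last digit of their column, day 7 libraries 1, 2, 3, 5 and 6 and day 0 libraries 2 and 3. Nothing states that they came from separate animals, so every error and p-value measures only the spread between these libraries.

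Total counts were 21910818 to 26955367 on day 7 and 24351820 and 28333855 on day 0. The label of CD4 T cells was checked against markers, as CPM summed over each list. The summed CPM of 6 T cell genes was 2370 to 2910 on day 7 and 2422 to 2651 on day 0. That of Cd4, Zbtb7b and Cd40lg was 795 to 1276 on day 7 and 762 to 791 on day 0, but these genes went different ways. Cd4 had 475, 591, 519, 913 and 936 CPM in day 7 libraries 1, 2, 3, 5 and 6. On day 0 Cd4 had 387 and 403 CPM. Zbtb7b had 197 to 221 CPM on day 7 and 180 and 189 CPM on day 0. Cd40lg was lower on day 7, at 110 to 155 CPM against 234 and 178 CPM on day 0. Day 7 libraries 5 and 6 stood apart. The sum of Cd8a and Cd8b1 was 204 and 177 CPM in day 7 libraries 5 and 6, 11.1 to 18.3 CPM in the other day 7 libraries and 2.29 to 3.61 CPM on day 0. The sum of 6 myeloid genes was 236 and 132 CPM in day 7 libraries 5 and 6, 11.6 to 27.9 CPM in the other day 7 libraries and 5.50 to 13.2 CPM on day 0.

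NK cells weigh signals from activating and inhibitory receptors, many of them lectin-like proteins encoded side by side in the NK gene complex. Some T cells carry the same receptors, among them NKT cells, whose innate-like programme depends on PLZF and which are abundant in mouse liver. On T cells these receptors can tune responses set off through the T cell receptor.

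Levels are in CPM, counts scaled to library size with TMM factors, and log2 changes are day 7 over day 0 ± standard error (SE) from an edgeR fit over all genes. Of the 9 genes 6 stood near 50% of their day 0 mean on day 7, namely Klrk1 (48.0%), Klrc1 (51.7%), Klre1 (50.8%), Cd160 (50.8%), Zbtb16 (48.5%) and Klrb1c (43.2%). In these 6 every day 7 library lay below both day 0 libraries. Klrd1 stood at 74.7%, while Klrg1 and Ncr1 had a mean above that of day 0 with ranges that overlapped. In bulk RNA, fewer cells carrying a transcript and less of it per cell cannot be told apart. An edgeR adjusted p under 0.05 was reached by 5 of the 9 genes, all lower on day 7. Over the 12929 genes tested 1.54% reached it, 0.472% lower and 1.07% higher. Lower without overlap were 6 of the 9 genes and 7.74% of all genes, and higher without overlap were 0 of the 9 genes and 7.53% of all genes (15.3% in either direction). Because the genes were chosen on this comparison, nothing is read from these counts. Which of the 9 genes passed also changed with the libraries and settings used, and no call is assigned to a single gene.

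**Figure D1:**
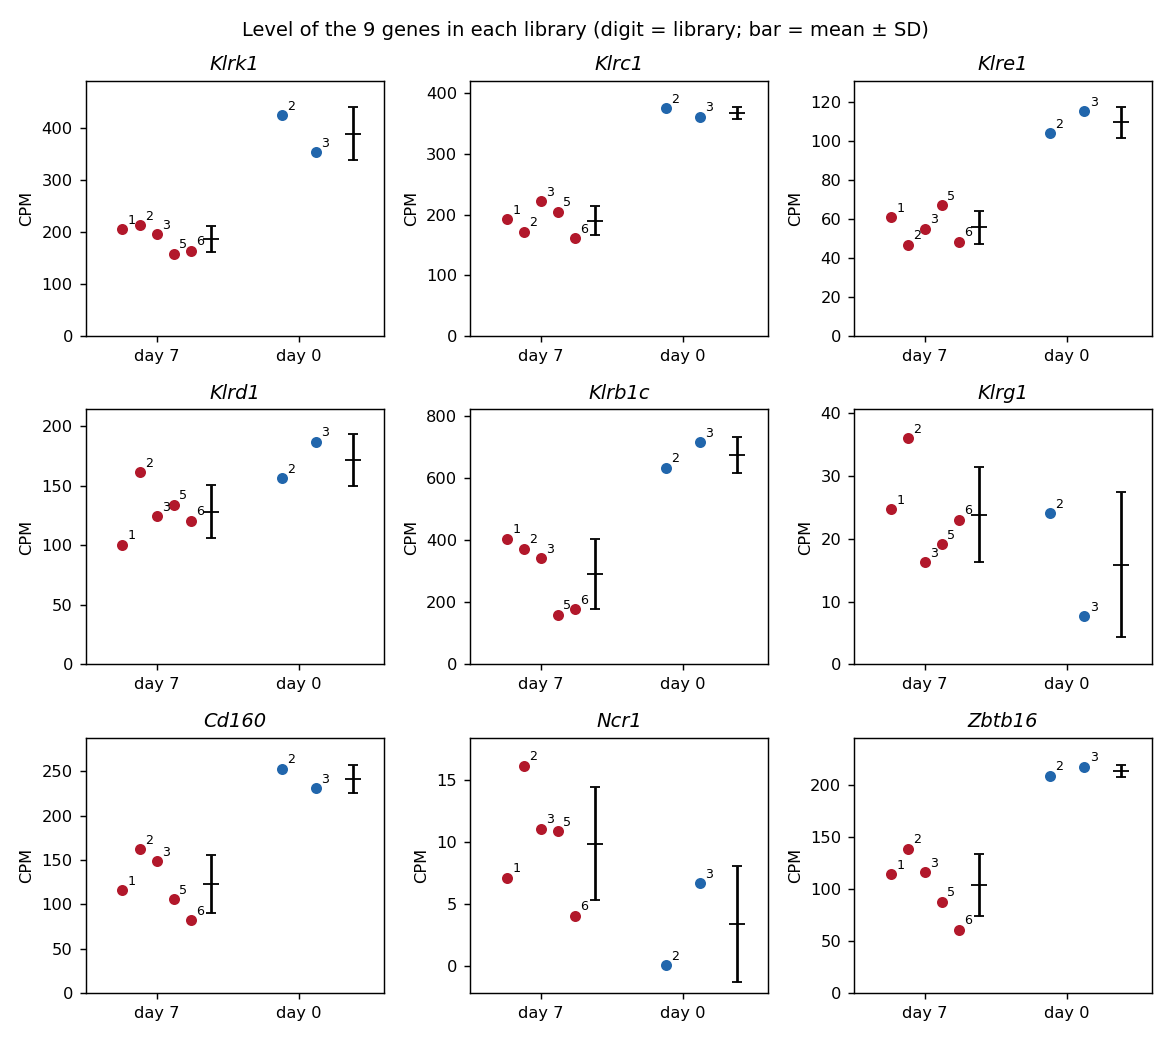
CPM of each of the 9 genes in the 5 day 7 libraries (red) and 2 day 0 libraries (blue), with the library digit beside each point and the mean ± SD as a bar. Klrk1, Klrc1, Klre1, Klrb1c, Cd160 and Zbtb16 show no overlap between days, Klrb1c splits within day 7 (160 and 178 CPM in libraries 5 and 6, 341 CPM or more in the others), and Ncr1 is near 0 in day 0 library 2.

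Of the 9 genes 5 lie in the NK gene complex on chromosome 6. In the RefSeq order of protein-coding genes that are also in the count table, Klre1, Klrd1 and Klrk1 are direct neighbours, followed by Klrc3, Klrc2 and Klrc1, and Klrb1c lies between Klrb1a and Klrb1b. Klrg1 is elsewhere on chromosome 6, Cd160 on chromosome 3, Ncr1 on chromosome 7 and Zbtb16 on chromosome 9. The genes whose day 7 means were close to 50% thus come from 3 chromosomes. RefSeq promoters, from 250 bases before to 50 bases after an annotated start, were found for 6 of the 9 genes (build GRCm38.p6, which is the build of the reference; that of the deposited table is not given). Klrd1, Klrg1 and Zbtb16 were not matched. The promoters of Klrk1, Klrc1 and Klrb1c and 1 of the 2 of Cd160 are shown as examples from genes that stood lower on day 7 without overlap, each with a match to the Runx motif. The first promoter of Klre1 and the other of Cd160 hold one too and are not shown. Letters are in lower case, 5′ to 3′ on the gene's strand, with matches in capitals to the Runx motif (TGTGGT), the Ets motif (GGAAGT) and the T-box motif (GGTGTGA), each searched on both strands. No match overlaps another.
Klrk1, chr6:129623815-129624114, minus strand: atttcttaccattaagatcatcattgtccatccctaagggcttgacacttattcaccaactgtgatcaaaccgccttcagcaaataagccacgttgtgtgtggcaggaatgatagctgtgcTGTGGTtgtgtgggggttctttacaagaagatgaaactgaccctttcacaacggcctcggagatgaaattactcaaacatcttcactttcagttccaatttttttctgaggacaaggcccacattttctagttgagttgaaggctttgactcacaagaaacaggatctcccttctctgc
Klrc1, chr6:129678924-129679223, minus strand: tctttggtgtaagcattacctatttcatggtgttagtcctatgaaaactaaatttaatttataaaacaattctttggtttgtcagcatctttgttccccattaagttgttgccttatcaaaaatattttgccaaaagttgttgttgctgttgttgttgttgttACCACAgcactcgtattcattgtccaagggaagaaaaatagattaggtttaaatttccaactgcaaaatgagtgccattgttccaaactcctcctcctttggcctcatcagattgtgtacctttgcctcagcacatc
Klrb1c, chr6:128788592-128788891, minus strand: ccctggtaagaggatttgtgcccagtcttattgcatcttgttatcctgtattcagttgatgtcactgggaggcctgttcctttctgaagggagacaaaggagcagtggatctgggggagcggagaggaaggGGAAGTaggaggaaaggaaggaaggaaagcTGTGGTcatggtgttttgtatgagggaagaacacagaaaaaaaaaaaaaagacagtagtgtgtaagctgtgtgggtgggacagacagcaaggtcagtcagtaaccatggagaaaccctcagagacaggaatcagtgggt
Cd160, chr3:96814472-96814771, minus strand: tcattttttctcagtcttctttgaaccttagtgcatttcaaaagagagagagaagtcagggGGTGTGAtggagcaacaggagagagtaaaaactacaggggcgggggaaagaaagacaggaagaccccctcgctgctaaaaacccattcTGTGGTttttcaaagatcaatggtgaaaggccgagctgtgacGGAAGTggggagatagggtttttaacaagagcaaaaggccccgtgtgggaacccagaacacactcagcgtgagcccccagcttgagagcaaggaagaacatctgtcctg

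The Runx match began 129 bases before the start in Klrk1, 87 in Klrc1 (on the opposite strand), 89 in Klrb1c and 101 in Cd160. Klre1, Cd160 and Ncr1 have 2 annotated promoters each, and a Runx match was found in 1 of those of Klre1 and in both of those of Cd160 and Ncr1. The Ncr1 promoters lie almost on top of each other and hold the same matches. So each of the 6 genes had such a match in at least 1 promoter. Counted per promoter, 16.8% of the 32851 RefSeq promoters of 300 bases held one. That share is not the same measure as a count per gene with up to 2 promoters. Whether these genes hold the motif more often than others was not tested. The Ets motif, present in 23.8% of promoters, was found in Klrb1c and in the Cd160 promoter shown. The T-box motif, present in 3.98%, was found in that Cd160 promoter, which holds all of the motifs, as do 0.253% of promoters. A match describes these letters only and is not evidence that a factor binds there.

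**Figure D2:**
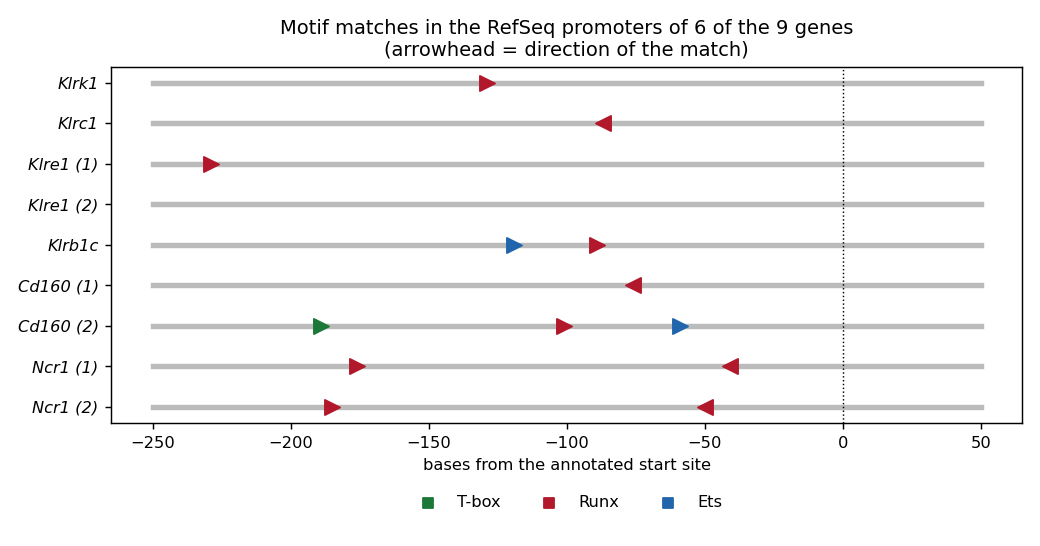
Positions of Runx, Ets and T-box matches (first base of each, arrowheads pointing along the strand of the match) in the RefSeq promoters of 6 genes, on an axis of bases from the annotated start. A Runx match is present in every promoter drawn except the second of Klre1, and the second Cd160 promoter carries 1 match of each motif.

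Among activating receptors, Klrk1 (Entrez 27007) encodes NKG2D, which binds stress-induced relatives of MHC class I and signals through the adaptor DAP10. Klrk1 had 205, 213, 196, 158 and 164 CPM in day 7 libraries 1, 2, 3, 5 and 6, against 425 and 354 CPM in day 0 libraries 2 and 3. The highest day 7 value was below the lower day 0 value. Its means were 187 ± 24.8 CPM on day 7 and 389 ± 50.5 CPM on day 0 (SD, n = 5 and 2), with a log2 change of -1.06 ± 0.16. Klrb1c (Entrez 17059) encodes NK1.1, the classical NK and NKT cell marker of C57BL/6 mice. It had 404, 372 and 341 CPM in day 7 libraries 1, 2 and 3 and 160 and 178 CPM in day 7 libraries 5 and 6, against 632 and 714 CPM in the day 0 libraries. No value of day 7 reached the day 0 values, and libraries 5 and 6 stood at 23.8% and 26.4% of the day 0 mean while libraries 1, 2 and 3 stood at 50.7% or more. The log2 change was -1.21 ± 0.42, the widest error among the 6 lower genes, and -0.87 without day 7 libraries 5 and 6. Ncr1 (Entrez 17086) encodes NKp46, an activating receptor that marks NK cells and related innate lymphocytes. It was the least abundant of the 9 genes, with 192, 406, 259, 285 and 89 counts in the day 7 libraries, against 1 and 186 counts in the day 0 libraries. A single count is under the floor of 3 counts, so Ncr1 was not detected with certainty in day 0 library 2, and its log2 change of 1.55 ± 1.42 was 0.57 without that library.

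Among inhibitory receptors, Klrc1 (Entrez 16641) encodes NKG2A, which pairs with CD94 and recognises the class I-like molecule Qa-1. Klrc1 had 192, 172, 222, 204 and 161 CPM in day 7 libraries 1, 2, 3, 5 and 6, against 375 and 361 CPM in the day 0 libraries. Libraries of the same day lay close together, and libraries 5 and 6 fell on either side of the day 7 mean, unlike in Klrb1c. The log2 change of Klrc1 was -0.95 ± 0.15. Klrd1 (Entrez 16643), which encodes CD94, the partner of NKG2A, had 101, 161, 125, 134 and 121 CPM on day 7, against 156 and 187 CPM on day 0. Day 7 library 2 lay above day 0 library 2, so the days overlapped, and the log2 change was -0.42 ± 0.20. Klre1 (Entrez 243655) encodes a lectin-like receptor that in mice forms inhibitory or activating pairs with KLRI proteins. It had 60.9, 46.7, 55.0, 67.0 and 48.3 CPM on day 7, against 104 and 115 CPM on day 0, with no overlap and a log2 change of -0.98 ± 0.25. Klrg1 (Entrez 50928), an inhibitory receptor for cadherins that marks terminally differentiated effector cells, had 24.7, 36.0, 16.3, 19.2 and 23.1 CPM on day 7, against 24.0 and 7.71 CPM on day 0. Its log2 change of 0.59 ± 0.54 rested on day 0 library 3, being 1.63 without day 0 library 2 and -0.0028 without day 0 library 3.

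Cd160 (Entrez 54215) encodes an immunoglobulin-domain receptor anchored to the membrane by a lipid, which binds HVEM. Cd160 had 116, 162, 148, 106 and 81.9 CPM on day 7, against 253 and 231 CPM on day 0. All day 7 libraries were below both day 0 libraries, library 6 lowest, and the log2 change was -0.98 ± 0.21. Zbtb16 (Entrez 235320), the gene of PLZF, had 114, 138, 116, 87.7 and 60.8 CPM on day 7, against 209 and 217 CPM on day 0. Its day 0 values were close together, the day 7 values spread more widely with libraries 5 and 6 lowest, and the log2 change was -1.04 ± 0.23.

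**Figure D3:**
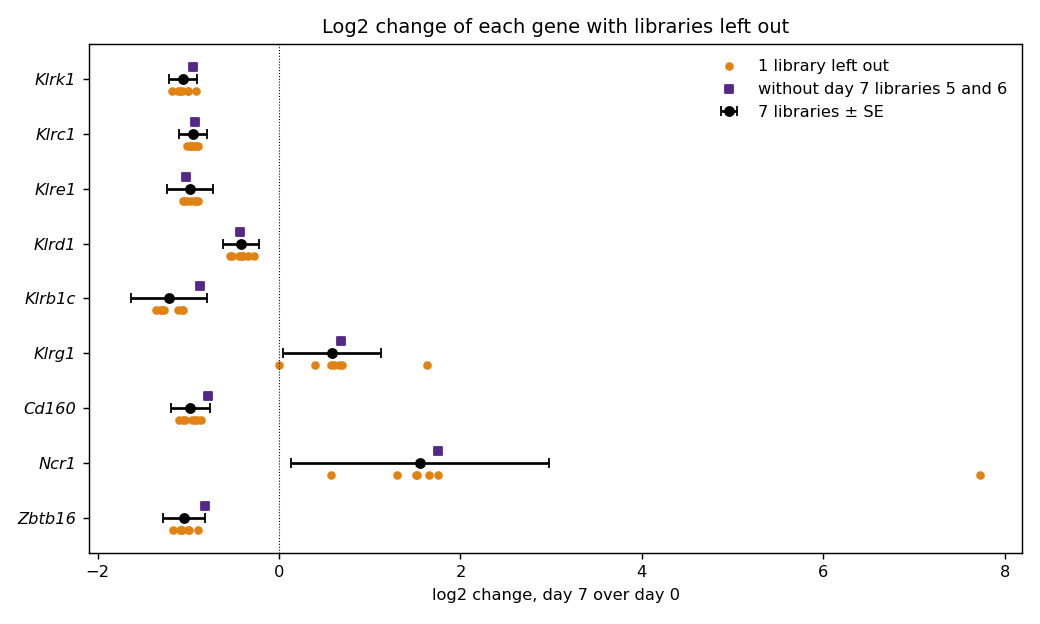
Log2 change, day 7 over day 0, of each gene with all 7 libraries (black, ± SE), with 1 library left out (orange) and without day 7 libraries 5 and 6 (purple). The 7 genes with a negative value stay negative throughout, while Klrg1 runs from -0.0028 to 1.63 and Ncr1 from 0.57 to 7.73.

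The 9 genes also differed in how their libraries ranked. Profiles were compared as log2(CPM + 1) over the 7 libraries, each centred on its own mean, by the root-mean-square difference. The closest pairs among the 9 genes were Cd160 with Zbtb16 (0.132) and Klrc1 with Klre1 (0.136), followed by Klrk1 with Cd160 (0.204). Klrb1c was nearest to Zbtb16 (0.286), and both were lowest in day 7 libraries 5 and 6. These profiles include the difference between days, known when the genes were chosen, so nothing is read from the closeness of pairs. Set among 7031 other protein-coding genes, the nearest of the 9 genes ranked from 2 (for Klre1) to 4796 (for Klrg1). The CPM per kilobase of Klrb1c over that of Zbtb16 was 4.97 ± 1.11 on day 7 and 5.64 ± 0.326 on day 0 (SD). Within the CD94 and NKG2A pair, the CPM per kilobase of Klrc1 over that of Klrd1 was 1.23, 0.686, 1.15, 0.985 and 0.861 on day 7, against 1.55 and 1.25 on day 0. Every day 7 ratio was below both day 0 ratios, with day 7 library 1 just under day 0 library 3. This was not particular to that pair. The ratio of Klre1 to Klrd1 was 0.222, 0.106, 0.162, 0.183 and 0.147 on day 7, against 0.243 and 0.225 on day 0. Klrd1 stood at 74.7% of its day 0 mean, while Klrc1 stood at 51.7% and Klre1 at 50.8%. The ratios taken without Klrd1 overlapped between days. Klrk1 over Hcst, the gene of DAP10, was 0.428 to 0.745 on day 7, against 0.811 and 0.721 on day 0. Klrc1 over Klrk1 was 2.92 to 4.69 on day 7, against 3.20 and 3.70 on day 0. The ratios include differences between days known when the genes were chosen, so nothing is read from them.

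Among 7031 other protein-coding genes with a mean of at least 20 CPM, the profiles most like that of Klrk1 were those of Rcbtb2 (0.117) and Lyst (0.134), a regulator of lysosome trafficking. Lyst stood at 481 ± 45.4 CPM on day 7 and 885 ± 2.78 CPM on day 0. Nearest to Klrc1 were Trip4 (0.114) and Klk8 (0.115), and nearest to Klre1 were Senp2 (0.126), a SUMO protease, and Btg1 (0.149), an antiproliferative gene. Nearest to Cd160 were Abcb1a (0.103), a drug efflux pump, and Xpc (0.13), a DNA damage sensor, and nearest to Zbtb16 were Sepsecs (0.117) and Kcnq5 (0.13). Nearest to Klrb1c were Aqp9 (0.201) and Elac1 (0.225), and nearest to Klrd1 were Sin3a (0.0681) and Snapc3 (0.0809). Klrg1 was nearest to Rrp36 (0.124) and Ncr1 to Ap1s3 (0.501). With 7 libraries and this many genes compared, close profiles are a description of these libraries.

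Levels of different genes were compared as CPM per kilobase of exon, using GENCODE M21 exon lengths. On day 7 Klrd1 (100.1 ± 17.3), Klrb1c (98.3 ± 38.5) and Klrc1 (95.9 ± 12.4) led and did not differ beyond their SD. They were followed by Cd160 (46.5 ± 12.3), Klrk1 (26 ± 3.46), Zbtb16 (19.6 ± 5.64), Klrg1 (16.9 ± 5.33), Klre1 (15.9 ± 2.45) and Ncr1 (6.38 ± 2.96), of which neighbours from Zbtb16 to Klre1 lay within their SD. On day 0 the order was Klrb1c (227 ± 19.4), Klrc1 (186 ± 5.01), Klrd1 (134 ± 17.1), Cd160 (91.5 ± 5.97), Klrk1 (54.2 ± 7.04), Zbtb16 (40.3 ± 1.11), Klre1 (31.3 ± 2.30), Klrg1 (11.2 ± 8.16) and Ncr1 (2.17 ± 3.03). On day 0 each neighbour in that order differed by more than the larger SD of the pair. In single libraries Klrb1c came first on day 0 and in day 7 libraries 1 and 3, and Klrd1 came first in the other day 7 libraries. Ncr1 was last in all 7 libraries. On day 0 Klrb1c exceeded 98.7% of the 12004 tested genes with a known length, and on day 7 it exceeded 96.9%. Klrk1 has long annotated isoforms, with 7183 exon bases in all, which lowers its value on this scale.

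Copies and overlaps limit some of these counts, since the settings of the counting are not given. Of the 50-base stretches in annotated Klrc1 transcripts 38.6% also occur in another gene, mostly Klrc2 (36.6%), and 17.0% of those of Klrb1c do, mostly in Gm44511, which shares 413 exon bases with it on the same strand. Cd160 shares 68 exon bases with Pdzk1 on the opposite strand. The share was under 1% for every other gene of the 9, and 0 for Klrk1, Klrd1, Klrg1 and Ncr1.

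Genes that work with these receptors were examined in 7 lists that exclude the 9 genes. Together the lists held 110 tested genes, of which 1 was called lower by edgeR's quasi-likelihood test at an adjusted p under 0.05 (background 0.472%) and 0 were called higher (background 1.07%). At an unadjusted p below 0.05 there were 15 lower and 10 higher, against 3.78% lower and 6.29% higher of the 12929 genes tested. By DESeq2 there were 5 lower (Cd226, Pik3r1, Tbx21, Vav3 and Xcl1) and 8 higher (Cd300a, Crtam, Eomes, Klra6, Klra7, Plcg2, Tox and Zbtb32), and by limma-voom 2 lower (Cd226 and Pik3r1) and 0 higher. Over all genes DESeq2 called 1.45% lower and 4.83% higher, and limma-voom 0.727% lower and 0.41% higher. Day 7 lay below day 0 without overlap in 25 of the 110 genes and above it in 15, against 7.74% and 7.53% of all genes. The median log2 change was -0.05 over the lists, 0.04 over all 12929 genes and -0.98 over the 9 genes. The 9 genes were chosen with these values known, so nothing is read from their median. The gene called was Tbx21, which encodes T-bet, a factor of Th1 and NK lineages. Tbx21 had 189, 171, 214, 220 and 222 CPM on day 7, against 333 and 285 CPM on day 0 (edgeR adjusted p = 0.0491, log2 change -0.60 ± 0.16). Its adjusted p ranged from 0.00243 to 0.515 over the alternatives, and leaving out day 7 library 6 was the only removal of a single library that kept the call. Without day 7 libraries 5 and 6 the genes of the lists called lower by edgeR were Tbx21 and Cd69, an early activation marker, and 0 were called higher (background 0.884% lower and 0.975% higher).

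**Figure D4:**
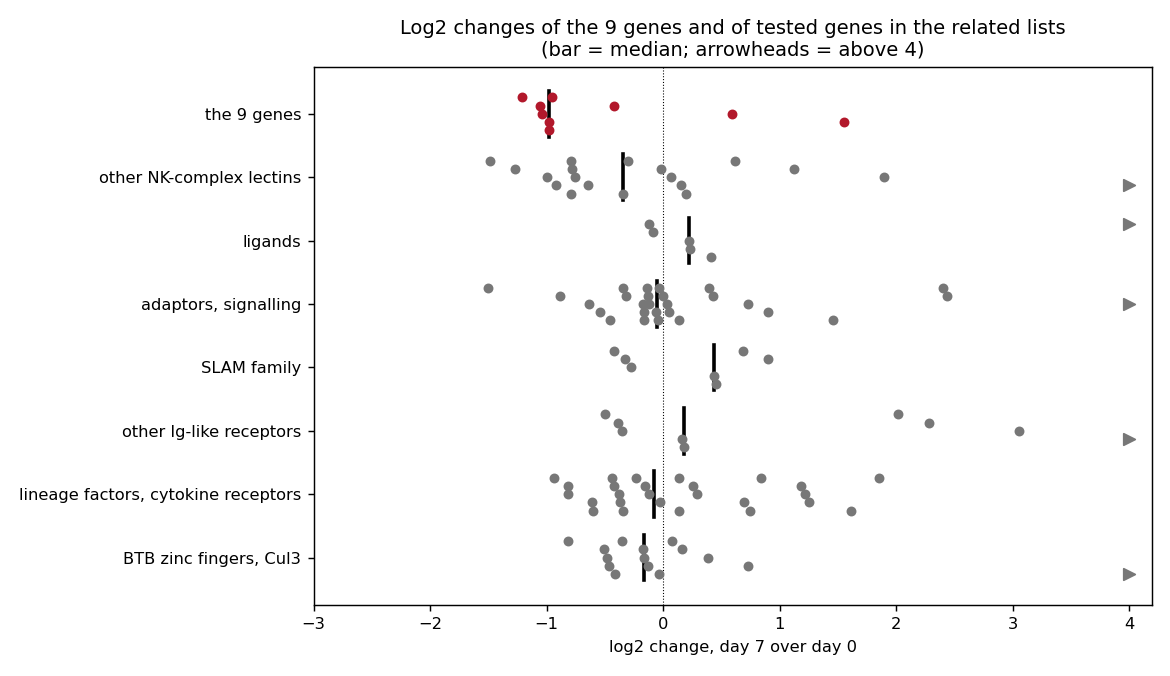
Log2 change, day 7 over day 0, of the 9 genes (red) and of the tested genes of each related list (grey), with medians as bars and values above 4 as arrowheads at the right edge. The 9 genes, chosen with these values known, have a median of -0.98, the other NK-complex lectin genes -0.35 and the remaining lists between -0.16 and 0.43.

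Of the other lectin-like receptors of the NK gene complex 19 were tested, and 0 passed edgeR's test in either direction. Unadjusted, 3 were lower and 2 higher at p below 0.05 (3.78% and 6.29% of all genes). DESeq2 had 0 lower and 2 higher (1.45% and 4.83% of all genes), and limma-voom 0. The median log2 change was -0.35, with 12 negative and 7 positive values. Klrb1b, an inhibitory relative and neighbour of Klrb1c, had 8.83 ± 3.57 CPM on day 7 and 24.8 ± 6.57 CPM on day 0 (edgeR adjusted p = 0.422, log2 change -1.49 ± 0.67). Klrc2, the activating counterpart of Klrc1, had 30.6 ± 9.97 CPM on day 7 and 53.0 ± 24.4 CPM on day 0 (edgeR adjusted p = 0.498). Klrb1a was barely present, at 3.22 ± 2.40 CPM on day 7 and 3.07 ± 0.00514 CPM on day 0. The Ly49 gene Klra1 had 41.4 ± 15.9 CPM on day 7 and 37.2 ± 4.2 CPM on day 0. The Ly49 genes called higher by DESeq2 were Klra6, at 26.7 ± 8.48 CPM on day 7 and 7.16 ± 5.28 CPM on day 0, and Klra7, at 55.2 ± 13.8 CPM on day 7 and 25.3 ± 17.0 CPM on day 0 (edgeR adjusted p = 0.144 for Klra6 and 0.233 for Klra7). Ly49 genes are close copies of each other, so their separate counts are uncertain.

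Among ligands of the receptors 6 genes were tested and 0 passed in either direction, with 0 at p below 0.05 unadjusted and 0 by DESeq2 or limma-voom. H2-T23, which encodes the Qa-1 molecule seen by NKG2A, had 339 ± 17.0 CPM on day 7 and 289 ± 13.3 CPM on day 0 (edgeR adjusted p = 0.627). Tnfrsf14, which encodes HVEM, had 107 ± 23.6 CPM on day 7 and 91.5 ± 9.77 CPM on day 0. Cdh1, a ligand gene of KLRG1, stood at 3.66 ± 3.45 CPM on day 7 and 3.89 ± 5.50 CPM on day 0. Of 28 adaptor and signalling genes 0 passed edgeR's test, with 3 lower and 2 higher at p below 0.05 unadjusted (3.78% and 6.29% of all genes). DESeq2 had 2 lower and 1 higher there (1.45% and 4.83% of all genes), and limma-voom 1 lower (0.727%). Hcst, the gene of the NKG2D adaptor DAP10, had 43.9, 29.8, 26.4, 37.0 and 38.3 CPM on day 7, against 52.7 and 49.3 CPM on day 0. These values did not overlap, but the log2 change of -0.54 ± 0.34 did not pass (edgeR adjusted p = 0.636). The adaptors Tyrobp (DAP12) and Fcer1g, which serve activating receptors of NK cells, were low, Tyrobp at 16.5 ± 8.66 CPM on day 7 and 8.83 ± 4.16 CPM on day 0 and Fcer1g at 15.8 ± 4.13 CPM on day 7 and 5.76 ± 8.15 CPM on day 0. Without day 0 library 2, the other day 0 library held no Fcer1g count and Fcer1g was called higher (edgeR adjusted p = 3.34e-04).

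In the SLAM family (7 tested), among other NK-type immunoglobulin-like receptors (9 tested) and among BTB zinc finger relatives of PLZF with Cul3 (15 tested), 0 genes passed edgeR's test. Unadjusted, at p below 0.05, the SLAM family had 1 lower and 2 higher, the immunoglobulin-like receptors 1 lower and 1 higher and the zinc finger list 1 lower and 1 higher (3.78% lower and 6.29% higher of all genes). DESeq2 had 0 in the SLAM family, 1 lower and 2 higher among the immunoglobulin-like receptors and 1 higher among the zinc fingers (1.45% lower and 4.83% higher of all genes). Limma-voom called 1 lower, among the immunoglobulin-like receptors (0.727% of all genes). Slamf6 had 158 ± 21.5 CPM on day 7 and 117 ± 10.9 CPM on day 0 (edgeR adjusted p = 0.452), and Sh2d1a, the SLAM adaptor gene, had 75.8 ± 12.7 CPM on day 7 and 73.9 ± 7.09 CPM on day 0. Zbtb7b, the BTB zinc finger factor that fixes the CD4 lineage, had 206 ± 9.15 CPM on day 7 and 185 ± 6.50 CPM on day 0. Cul3, a ubiquitin ligase subunit that partners PLZF, had 287 ± 35.9 CPM on day 7 and 314 ± 24.0 CPM on day 0.

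Of 26 lineage factors and cytokine receptors of innate-like T and NK cells 1, Tbx21, was lower and 0 were higher. Unadjusted, 6 were lower and 2 higher at p below 0.05 (3.78% and 6.29% of all genes). DESeq2 had 2 lower and 2 higher (1.45% and 4.83% of all genes), and limma-voom 0. Il2rb, the receptor chain shared by interleukins 2 and 15, had 2099, 1983, 2340, 1362 and 1610 CPM on day 7, against 2417 and 2622 CPM on day 0. It did not overlap between days, but its log2 change of -0.42 ± 0.19 did not pass (edgeR adjusted p = 0.496), though it did with no filter on low counts (edgeR adjusted p = 0.00309). Cxcr6, a chemokine receptor of liver-resident lymphocytes, had 640 ± 75.2 CPM on day 7 and 812 ± 89.4 CPM on day 0 (edgeR adjusted p = 0.256). Id2, an inhibitor of E proteins needed by NK cells, had 705 ± 64.8 CPM on day 7 and 831 ± 45.4 CPM on day 0, and Nfil3, an early NK lineage factor, had 25.2 ± 16.4 CPM on day 7 and 11.1 ± 2.88 CPM on day 0. Eomes, the T-box factor of mature NK cells, was low but without overlap at 20.7 ± 6.01 CPM on day 7 and 5.72 ± 1.38 CPM on day 0 (edgeR adjusted p = 0.23, log2 change 1.86 ± 0.66), and DESeq2 called it higher (adjusted p = 0.0052).

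Markers of other cells also differed between days or between libraries. The sum of 12 NK cell markers outside the 9 genes was 197 to 278 CPM on day 7 and 144 to 165 CPM on day 0. The list is not specific to NK cells, since it holds Irf8, Tyrobp, Fcer1g and Fcgr3, which myeloid cells can also express. Irf8 had 39.8 to 87.3 CPM on day 7 and 53.4 and 48.9 CPM on day 0. Irf8, Fcer1g and Fcgr3 were highest of day 7 in library 5 and lowest in library 6, the libraries with the highest myeloid sums. How much of the higher sum came from NK cells was not tested. The mean was higher on day 7 for 10 of the 12, among them Klra7 and Eomes, and lower for 2, Klra9 (18.0 ± 8.82 CPM on day 7 and 30.4 ± 0.961 CPM on day 0, without overlap) and Klra3 (16.5 ± 3.48 CPM on day 7 and 20.9 ± 11.3 CPM on day 0). Their part in the values of the 9 genes was not tested. In both day 0 libraries 3 of the 12 (Klra4, Klra8 and Sh2d1b1) had no count. These 3 are among the 10 with a higher day 7 mean, and they had few counts on day 7 too. In day 7 libraries 1, 2, 3, 5 and 6 Klra4 had 0, 0, 0, 48 and 1 counts. Klra8 had 100, 0, 0, 1 and 25 counts there, and Sh2d1b1 had 64, 99, 78, 0 and 56. Day 7 libraries 5 and 6, which had the highest sums of CD8 and myeloid genes, were the lowest of day 7 for Klrk1, Klrb1c, Cd160 and Zbtb16, and the part of these cells in that result was not tested. Of the other marker lists, the summed CPM was 17.9 to 47.9 on day 7 and 23.2 to 25.0 on day 0 for 5 hepatocyte genes. It was 5.11 to 17.3 on day 7 and 0 to 1.77 on day 0 for 3 gamma-delta T cell genes, 7.53 to 67.0 on day 7 and 12.0 to 17.5 on day 0 for 4 genes of type 3 innate lymphoid cells, and 47.5 to 73.0 on day 7 and 40.04 to 48.7 on day 0 for 4 genes of the type 2 cells. It was 78.4 to 171 on day 7 and 60.9 to 104 on day 0 for 3 endothelial genes. On day 0 that endothelial sum was all Pecam1, since Cdh5 and Kdr had no count there. In day 7 libraries 1, 2, 3, 5 and 6 Cdh5 had 0, 0, 0, 56 and 78 counts. Kdr had 0, 1, 0, 142 and 98 counts in the same libraries. The summed CPM was 2.67 to 18.2 on day 7 and 2.22 to 15.3 on day 0 for 4 dendritic cell genes. For 2 neutrophil genes it was 0 to 9.05 on day 7 and 0.739 to 5.86 on day 0. Without day 7 libraries 5 and 6 the log2 changes were -0.94 for Klrk1, -0.93 for Klrc1, -1.03 for Klre1, -0.78 for Cd160 and -0.81 for Zbtb16, and they were -0.43 for Klrd1, 0.68 for Klrg1 and 1.75 for Ncr1.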

How the data were processed

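The deposited table holds raw counts per gene made by the authors, 1 whole number per gene and library. Per the labels' protocols, TRIzol was used for RNA and libraries followed standard Illumina steps. Per the submitters' processing notes CASAVA 1.8, HISAT2 2.0.5 and featureCounts 1.5.0-p3 were used, with roles, build, annotation and strand setting not stated there. Columns were assigned to a day by name and to no single sample. Even numbers made up 72.5% to 78.1% of each library's counts of 2 to 200, for a reason not given, so a count need not be 1 fragment.

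After filterByExpr and TMM (factors 0.988 to 1.01), the 12929 remaining genes were fitted with edgeR 4.0.16 in R 4.3.3 (glmQLFit with robust estimation, then glmQLFTest) for day 7 against day 0. Calls use Benjamini-Hochberg adjusted p over all of them, under 0.05. The SE was taken as the absolute log2 change over the square root of F. Marker sums use total counts, and fewer than 3 counts were read as not detected (counting error only). Also run were scaling by RLE, by upper quartiles and by library size alone, gene filters of none and of a mean of at least 5 CPM, DESeq2 1.42.0, limma-voom (limma 3.58.1), each library left out, and day 7 libraries 5 and 6 left out.

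The 9 genes and the lists were chosen with earlier results of these data known. The naming rule took the 9 genes, 19 fixed partners, up to 3 called genes per list and direction, and the 2 nearest profiles per gene, and some of these are not described. Promoters to print, and genes named as called by another tool or setting, were picked after their values were seen.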

Additional observations from a re-analysis of the deposited data

Results flagged for a closer look

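Among the day 7 groups of 29 genes (the 9 genes and 20 partner genes), a single library stood apart from the other 4 in 2, where chance alone picks about 1 group in 20. Sh2d1a stood at 98.4 CPM in day 7 library 5 and between 67.3 and 71.5 CPM in the other 4. Cul3 stood at 225 CPM in day 7 library 6 and between 293 and 318 CPM in the other 4. Of the 9 genes, 0 had such a library on day 7.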

How the results depend on the processing

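With 2 against 5 libraries, single libraries weigh heavily. The log2 changes of Klrk1, Klrc1, Klre1, Klrd1, Klrb1c, Cd160 and Zbtb16 stayed negative and moved by less than the spread between libraries under each of 15 alternatives. Klrg1 ran from -0.0028 to 1.63 with 1 library left out. Ncr1 ran from 0.57 to 7.73 with 1 library left out, where the higher value rests on a single day 0 count, and was 3.73 with limma-voom. The number of partner genes called higher was 1 with no filter and 8 with DESeq2, and 0 to 3 with 1 library left out. The number called lower was 0 with RLE factors, with library sizes alone and with a mean of at least 5 CPM, 8 with no filter, 5 with DESeq2, 2 with limma-voom and 2 without day 7 libraries 5 and 6, and 0 to 1 with 1 library left out. Over all genes 375 were called with no filter and 813 with DESeq2, against 199 in the reported analysis and 127 to 189 with 1 library left out. The cause was not tested. Of 298 values of the 20 individually tracked partner genes (19 fixed ones and Tbx21) under alternatives 285 kept their side of the threshold, 10 lost a call, 3 gained one and 0 reversed. Only a change of sign in a gene called in the reported or the alternative fit was counted as reversed. Signs did change in genes without a call. With limma-voom the log2 change of Cdh1 went from -0.09 to 0.55 and that of Klrb1a from 0.07 to -1.32. No paired analysis was possible because the digits of the columns cannot be tied to the replicate numbers in the labels. With 1 day 0 library left out, the remaining one is assumed to vary like the day 7 libraries. Depth limits Ncr1, with 1 count in day 0 library 2.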
